A study of Mus musculus and synthetic construct with 32 samples.

Results

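The replication-dependent histone genes are the clustered, mostly intronless genes that supply new histones while DNA is copied. They were taken by name, as every gene measured over its exons in the sense orientation whose symbol begins with Hist1h, Hist2h, Hist3h or Hist4h and holds no pseudogene mark (-ps). The rule found 63 genes among the 22750 sense exon genes of the mouse tables. Each total RNA table held 62 of them, out of 20215 genes for testis at postnatal day 12 (P12), 19463 for ovary on the day of birth (P0) and 20142 for testis at P8. The table of m6A-containing RNA held all 63, out of 22511 genes, and the plain name Hist2h2aa2 was in that table alone. A mean normalized count of at least 10 was reached by 60 members in each total RNA table, with Hist1h2br and Hist2h3c2 below it, and by 37 members in the m6A table. Hist2h2aa2, Hist1h2br and Hist2h3c2 also had entries under a prefixed name, which the rule left out. The mean normalized counts of these entries were 371, 1646 and 790 in P12 testis. They were 271, 774 and 954 in P8 testis, and 160, 741 and 1408 in P0 ovary. Hist1h2ao, a member by its plain entry, also had a prefixed entry, with 1205 in P12 testis, 951 in P8 testis and 512 in P0 ovary. Its plain entry had 66.5, 58.9 and 66.9 in the same order. The 60 members above that floor were 6 genes for the linker histone H1, 16 for H2A, 16 for H2B, 10 for H3 and 12 for H4. Hist3h3, a testis-enriched H3 gene whose name fits the rule, was not among the 63 genes found.

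All animals were C57BL/6J mice, and the mutated gene was Ythdc2, whose product is a helicase that binds N6-methyladenosine (m6A) through its YTH domain. The total RNA comparisons set 3 Ythdc2 -/- against 3 Ythdc2 +/- P12 testis libraries, 2 Ythdc2 -/- against 2 Ythdc2 +/- P0 ovary libraries, and 2 Ythdc2 -/- P8 testis libraries against 1 Ythdc2 +/- and 1 Ythdc2 +/+ library. These 14 libraries were stranded and cleared of ribosomal RNA, without selection for poly(A) tails. The m6A assay took fragmented polyadenylated RNA of testes through an antibody against m6A, in 10 libraries: 1 immunoprecipitate and 1 input at P8 (Ythdc2 +/+), 2 of each at P12 (Ythdc2 +/-) and 2 of each at P20 (Ythdc2 +/+). The knockout is constitutive. It exists as a pair of lines, one that lost exon 7 and one with stop codons placed in it, and the labels do not say which line gave which library, nor whether libraries came from separate animals. The adjusted p-values therefore measure the spread between libraries, which may be technical. In the authors' deposited tables Ythdc2 itself stood at -1.29 (log2) at P12 (adjusted p = 9.87e-25), at -0.43 in the P0 ovary (adjusted p = 0.584), at -0.50 at P8 against the wild type and at -0.24 at P8 against the heterozygote (adjusted p = 1 in both), so its RNA passed the test at P12 alone. A count over all exons does not test for a lesion inside 1 of them. Markers of the labelled tissues were present at a mean normalized count of at least 10 in the authors' deposited tables: all 10 Sertoli cell and all 6 germ cell markers in both testis tables, and all 8 oocyte and all 6 pregranulosa cell markers in the ovary. Reaching that floor does not tell the tissues apart, since 9 of 10 Sertoli cell and 6 of 7 Leydig cell markers reached it in the ovary, and 6 of 8 oocyte and 5 of 6 pregranulosa cell markers in both testis tables. Of 7 spermatid markers, 1 reached it in P12 testis, 6 in P8 testis and 5 in P0 ovary.

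In a dividing cell, histone genes are switched on at the start of S phase by NPAT at the histone locus body, and their RNAs are destroyed when replication ends. Their mRNAs are the animal mRNAs that normally lack a poly(A) tail: they end in a short stem-loop, bound by the stem-loop binding protein SLBP, after cleavage guided by the U7 small nuclear RNP. Male germ cells add testis-enriched members, TH2A (Hist1h2aa) and TH2B (Hist1h2ba), which enter chromatin around the start of meiosis, and the linker histone H1t (Hist1h1t), which appears later, in pachytene spermatocytes. Testes at P8 hold mainly spermatogonia among their germ cells, testes at P12 also hold the first meiotic spermatocytes, and the ovary at birth holds oocytes that have already left S phase, beside dividing somatic cells.

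The members lie on 4 chromosomes of the mouse genome (RefSeq, GRCm38.p6, the assembly that mm10 names). Chromosome 13 carries 52 of them, 20 at chr13:21715711-22043658, 31 at chr13:23531044-23934913 and Hist1h2al alone at chr13:51200084-51203066. Chromosome 3 carries 8 at chr3:96219885-96270192, chromosome 11 carries 2 (Hist3h2a and Hist3h2ba) at chr11:58948911-58955192, and chromosome 6 carries Hist4h4 at chr6:136803993-136804431. RefSeq lists 62 as protein coding and Hist1h2al as a transcribed pseudogene. The annotated span from start to end was 375 to 911 bases in 57 members, and 1000 bases or more in Hist1h2al, Hist1h2bc, Hist1h2be, Hist1h2bp, Hist1h2br and Hist2h2be.

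Promoters are shown for 4 members that the results below turn on. Hist1h1a encodes the linker histone H1.1 and had the highest level in testis among the members. Hist1h1t and Hist1h2aa are testis-enriched. Hist3h2a is an H2A gene with one of the highest m6A precipitation values among the members, though not among all genes. Each is the 300-base window from 250 bases before to 50 bases after the annotated start, on the plus strand, from RefSeq (GRCm38.p6): Hist1h1a at chr13:23763418-23763717, Hist1h1t at chr13:23695561-23695860, Hist1h2aa at chr13:23934187-23934486 and Hist3h2a at chr11:58954435-58954734. Capitals mark 4 motifs on either strand. One is TATAA, the core of the box that sets the start site in many promoters. Another is CCAAT, a common upstream box. The octamer of H2B promoters was searched as ATGCAAAT. The H1 box was searched as AAACACA. None of the marked stretches overlaps another.
Hist1h1a: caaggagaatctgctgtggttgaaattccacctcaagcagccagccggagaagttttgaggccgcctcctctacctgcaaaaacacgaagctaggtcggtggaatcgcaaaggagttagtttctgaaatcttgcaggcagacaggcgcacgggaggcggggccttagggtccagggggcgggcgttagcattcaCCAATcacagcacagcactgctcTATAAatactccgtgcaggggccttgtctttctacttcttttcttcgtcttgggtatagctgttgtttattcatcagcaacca
Hist1h1t: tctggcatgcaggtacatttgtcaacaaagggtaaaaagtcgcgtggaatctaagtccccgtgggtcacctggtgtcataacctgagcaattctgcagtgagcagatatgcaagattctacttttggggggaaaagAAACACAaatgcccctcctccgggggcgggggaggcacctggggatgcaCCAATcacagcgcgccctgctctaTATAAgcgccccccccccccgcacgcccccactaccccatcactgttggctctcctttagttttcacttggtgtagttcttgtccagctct
Hist1h2aa: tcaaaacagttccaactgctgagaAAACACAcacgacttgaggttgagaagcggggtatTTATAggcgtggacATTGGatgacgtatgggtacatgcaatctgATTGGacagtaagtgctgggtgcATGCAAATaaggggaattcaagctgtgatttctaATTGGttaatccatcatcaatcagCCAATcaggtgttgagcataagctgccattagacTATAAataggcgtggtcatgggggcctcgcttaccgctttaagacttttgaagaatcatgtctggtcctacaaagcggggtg
Hist3h2a: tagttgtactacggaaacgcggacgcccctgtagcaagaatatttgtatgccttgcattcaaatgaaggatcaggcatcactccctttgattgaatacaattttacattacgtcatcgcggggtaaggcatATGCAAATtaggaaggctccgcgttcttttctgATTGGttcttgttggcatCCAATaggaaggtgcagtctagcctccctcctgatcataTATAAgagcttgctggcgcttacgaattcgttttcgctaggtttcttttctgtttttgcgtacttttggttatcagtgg
In Hist1h1a the TATA box lay 33 bases and the CCAAT box 56 bases before the start, and the window held neither octamer nor H1 box. In Hist1h1t the H1 box lay 114, the CCAAT box 65 and the TATA box 41 bases before the start, the order known from H1 promoters. In Hist1h2aa the octamer lay 124 bases and in Hist3h2a 119 bases before the start.

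RefSeq promoters were found for 57 members, in 58 windows, and their letters were counted against all 32851 promoter windows. TATAA was present in 46 of 58 member windows (79.3%), against 24.9% of all windows. CCAAT was present in 50 (86.2%), against 37.4%. It was in every window of the H1, H2A, H2B and H3 genes, and in 3 of 11 windows of the H4 genes. ATGCAAAT was present in 14 (24.1%), against 1.74%, and all 14 belonged to H2A genes (7 of 16 windows) and H2B genes (7 of 16 windows). AAACACA was present in 9 (15.5%), against 7.18%, and 5 of the 6 H1 windows held it, Hist1h1a being the one without. A match describes the letters of the window, not a bound site, and neighbouring H2A and H2B genes share promoter sequence. Among members with a RefSeq promoter, which gives their strand, 8 head-to-head pairs of 1 H2A and 1 H2B gene had 163 to 280 bases between them, among them Hist1h2ba and Hist1h2aa with a gap of 280 bases, so these 2 testis-enriched genes are read away from 1 shared stretch.

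The histone family ranked high among the genes of all 3 total RNA tables. Levels here are shares, in percent or in parts per 1000000 (ppm): a gene's mean normalized count from the authors' deposited table over the sum of all sense exon genes of that table. Each mean covers all libraries of a table, knockout and control together, the tables hold no value per library, and each was normalized on its own, so levels across tables carry no SD and no test. In the authors' deposited tables the members together took 1.42% of sense exon counts in P12 testis, 0.849% in P8 testis and 1.11% in P0 ovary. As a share of all feature types, introns and repeats included, they took 0.728% in P12 testis, 0.379% in P8 testis and 0.374% in P0 ovary, so P12 testis was highest on both scales and the order of P8 testis and P0 ovary turned. The median member stood at percentile 84.8 of all genes in P12 testis, 79.1 in P8 testis and 90.4 in P0 ovary. Of the total, H1 genes took 0.486% in P12 testis, 0.318% in P8 testis and 0.361% in P0 ovary in the authors' deposited tables. H2A genes took 0.250% in P12 testis, 0.120% in P8 testis and 0.113% in P0 ovary. H2B genes took 0.319% in P12 testis, 0.169% in P8 testis and 0.225% in P0 ovary. H3 genes, the least abundant class in testis, took 0.0643% in P12 testis, 0.0721% in P8 testis and 0.149% in P0 ovary. H4 genes took 0.305% in P12 testis, 0.170% in P8 testis and 0.266% in P0 ovary. The H3 genes were the only class whose share in P0 ovary was above that in both testis tables. How reads shared by near-identical copies were assigned is not stated, so the split between single members is less certain than the class sums.

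A few genes supplied much of the testis total. Per kilobase of annotated span, which allows genes of different length to be compared, Hist1h1a was highest in P12 testis, with 4399 ppm per kilobase in the authors' deposited table, against 2032 in P8 testis and 870 in P0 ovary. Hist1h2ba (TH2B) had 2366 in P12 testis, 441 in P8 testis and 164 in P0 ovary on the same scale. Hist3h2a, whose H2A product is nearly identical to that of other H2A genes, had 2001 in P12 testis, 850 in P8 testis and 387 in P0 ovary. Hist1h2aa (TH2A) had 1745 in P12 testis, 440 in P8 testis and 63.6 in P0 ovary. These 4 genes were the 4 highest of the family in P12 testis, and all 4 had their lowest level in the P0 ovary. The H4 genes Hist1h4c (1579 in P12 testis, 659 in P8 testis and 722 in P0 ovary) and Hist1h4k (1293 in P12 testis, 708 in P8 testis and 922 in P0 ovary) followed, and the linker histone gene Hist1h1c (H1.2) stood at 1206 in P12 testis, 871 in P8 testis and 1200 in P0 ovary. For Hist1h1c the ratio of the P12 testis to the P0 ovary share was 1.01.

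**Figure D1:**
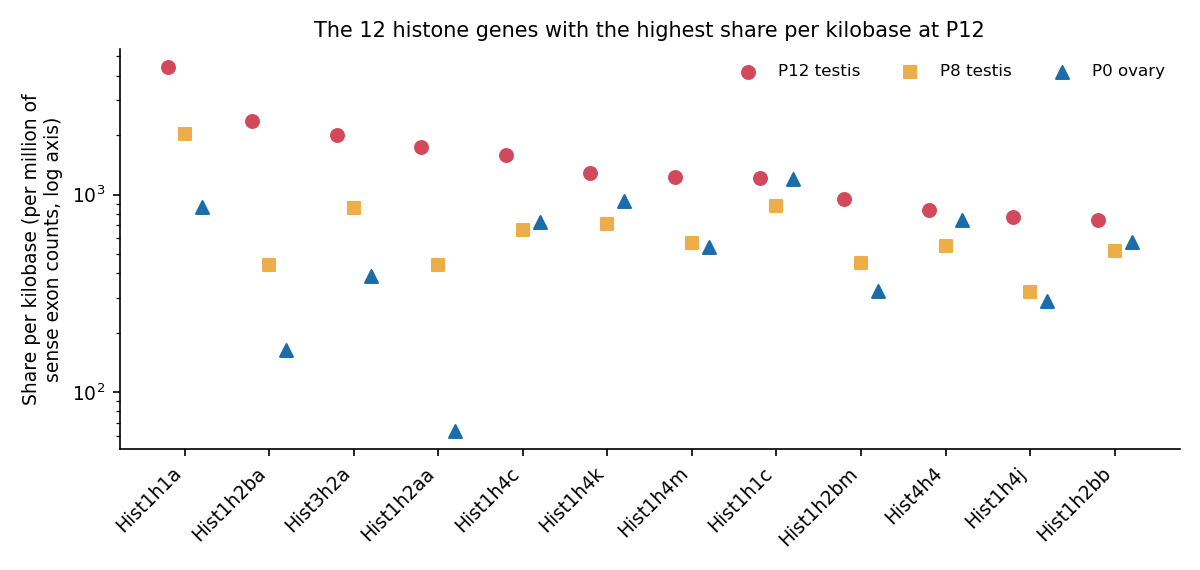
Levels of the 12 members with the highest level in P12 testis, among the 57 with a span under 1000 bases, in ppm per kilobase of annotated span (vertical axis, logarithmic), for P12 testis, P8 testis and P0 ovary total RNA, from the mean normalized counts of the authors' deposited tables over all libraries of each table. Hist1h1a is highest in P12 testis at 4399, and Hist1h2aa has the widest gap, with 1745 in P12 testis and 63.6 in P0 ovary.

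The testis-enriched genes had the 3 highest ratios of testis to ovary share. The share in P12 testis divided by that in P0 ovary, from the authors' deposited tables, was 27.4 for Hist1h2aa, 14.4 for Hist1h2ba and 5.48 for Hist1h1t. It was 5.17 for Hist3h2a and 4.38 for its neighbour Hist3h2ba, an H2B gene, and 5.06 for Hist1h1a. At the other end, Hist2h3b, an H3 gene, had a ratio of 0.118, and Hist1h1b (the linker histone H1.5) 0.182. The median of the 60 members was 0.683, with 22 above 1 and 11 above 2, whereas the median over 14187 genes was 1.10, with 56.0% above 1 and 15.7% above 2. This depends on the denominator. Sense exons took 51.1% of the counts of all feature types in P12 testis and 33.6% in P0 ovary, and as a share of all feature types, an alternative chosen after seeing the data, the members' median ratio was 1.04, with 30 of 60 above 1, against 1.67 over all genes. On both scales the members' median lay below that of all genes. In bulk tissue, fewer cells of a type and less RNA per cell cannot be told apart.

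Between the ages of the testis, the P12 share divided by the P8 share from the authors' deposited tables was highest for Hist1h2ba (5.37) and Hist1h2aa (3.96). The H4 gene Hist1h4i followed with 2.61, and Hist1h4c, Hist1h4j, Hist1h1t and Hist3h2a stood at 2.40, 2.40, 2.36 and 2.35. The lowest ratio was 0.409, for Hist1h1b. The 60 members had a median of 1.17, with 38 above 1 and 12 above 2, against a median of 1.01 over 15180 genes, of which 2.98% were above 2. As a share of all feature types the medians were 1.34 for the members and 1.16 for all genes. Genotypes are pooled in these means, and the 2 tables differ in their mix of genotypes and library numbers, whose part in the ratios was not tested.

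In polyadenylated RNA the family was scarce. The members took 0.0124% of sense exon counts in the authors' deposited m6A table, against 1.42% in P12 total RNA, and the median member stood at percentile 29.7 of all genes in polyadenylated RNA. The log2 ratio of the share in polyadenylated RNA to that in P12 total RNA had a median of -7.51 over the 60 members, 182-fold lower, against -0.08 over 15601 genes. Of the 15608 genes at the count floor in P12 total RNA, those without a count in polyadenylated RNA have no ratio and were not ranked. Of the 156 genes with the lowest ratios, the lowest 1%, 57 were histone members. A ratio below -5 was found for 50 of the 60 members and for 65 genes in all (0.417% of 15601). Hist1h2ao (-6.08) was among the 50 by its plain entry alone, with a mean normalized count of 0.956 in the m6A table. Its prefixed entry, not a member, had 202 there. The ratios were lowest for Hist1h2bm (-9.55), Hist1h2bj (-9.48), Hist1h2bk (-9.42), Hist1h2bn (-9.18) and Hist2h4 (-9.07), in shares from the authors' deposited tables. All but Hist1h2bm of these 5 had a mean normalized count below 10 in the m6A table, as did 23 of the 60 members, so their order and exact ratios rest on few reads. Hist1h2bm, an H2B gene, had 0.609 ppm in polyadenylated RNA, against 457 in P12 total RNA. Hist1h1a had 7.29 ppm in polyadenylated RNA, against 3277 in total RNA, a ratio of -8.81. Of the 20 genes with the lowest ratios, 17 were members, 1 was a further copy of Hist1h2br that the table lists under a prefixed name, and the other two were Rpph1 (-9.52) and Rmrp (-9.13), the RNA components of RNase P and RNase MRP, which carry no poly(A) tail.

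By class, the median log2 ratio of polyadenylated over total share was -7.44 for H1, -5.83 for H2A, -7.81 for H2B, -8.24 for H3 and -7.98 for H4 genes, in shares from the authors' deposited tables. Of the H3 genes, 8 of 10 had a mean normalized count below 10 in the m6A table, as did 5 of 12 H4 genes. All 10 H3 and all 12 H4 genes lay below -5, whereas 9 of 16 H2A genes did. One member was higher in polyadenylated RNA: Hist2h2be, an H2B gene whose annotated span is 2667 bases, had 22.2 ppm in polyadenylated RNA, against 9.72 in total RNA, a ratio of 1.19. The next highest were Hist1h2af (-2.15), Hist2h2ab (-2.18), Hist1h2ae (-2.90) and Hist1h2bc (-3.02). Of the testis-enriched genes, Hist1h1t had a ratio of -3.93, with 6.47 ppm in polyadenylated RNA against 98.5 in total RNA, while Hist1h2ba (-7.93) and Hist1h2aa (-8.20) lay near the family's median. Hist3h2a lay at -5.77, with 18.6 ppm in polyadenylated RNA against 1017 in total RNA. The 5 measured members whose span was 1000 bases or more had a median of -3.28, against -7.78 for the other 55.

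Other genes of histone supply lacked this gap. The replacement histones, most of which are made outside S phase from polyadenylated mRNAs, had a median ratio of -0.46 over 11 genes in shares from the authors' deposited tables. Among them H3f3b, which encodes H3.3, had 490 ppm in polyadenylated RNA against 808 in total RNA (-0.72). H2afx, which encodes H2A.X and is known to give both a stem-loop and a polyadenylated mRNA, had a ratio of -0.54, H2afz (H2A.Z) 0.62, H1f0 (H1.0) -0.22 and H1fx (H1.10) 2.93. A list of 32 S phase and replication genes had a median of -0.51. The tables being compared also differ in kit, in RNA fragmentation and in age (P20 testes are part of the polyadenylated mean). They differ in genotype, as Ythdc2 -/- libraries are part of the total RNA mean alone. The polyadenylated mean also holds immunoprecipitates beside inputs. These differences cannot be told apart from poly(A) selection.

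**Figure D2:**
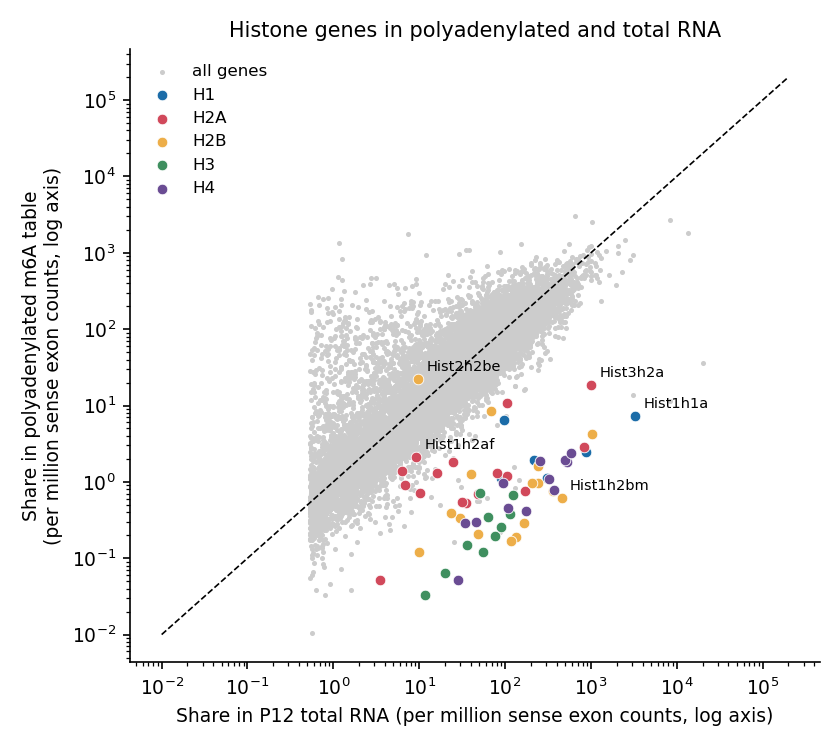
Share of each gene in polyadenylated testis RNA (vertical axis, ppm) against its share in P12 testis total RNA (horizontal axis, ppm), both axes logarithmic, with the 60 histone members coloured by class over all genes in grey, from the mean normalized counts of the authors' deposited tables. The members lie far below the diagonal of equal shares, at a median log2 ratio of -7.51, and Hist2h2be alone lies above it at 1.19.

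In P12 testis, loss of Ythdc2 left no histone gene past the test. None of the 60 members had an adjusted p below 0.05 in the authors' deposited table, where 0.881% of 15558 sense exon genes did (0.0964% higher and 0.784% lower in the knockout). The submitters' processing notes name DESeq2 for these values, and since adjusted p-values alone are deposited, neither a count at an unadjusted p nor one by another tool can be set beside this or the other counts of 0. At 0.881% of all genes, a count of 0 among 60 does not set the family apart. The shares called in the other total RNA comparisons were lower still. The 60 log2 fold changes ran between -0.52 and 0.40, with a median of 0.06, and 43 were above 0 and 17 below. Over all 15608 genes the median was 0.01, with 8137 above 0 and 7471 below.

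The member with the lowest adjusted p at P12 was Hist1h4i, an H4 gene, with a fold change of -0.52 on the log2 scale (adjusted p = 0.0643, mean normalized count 2071) by the authors' deposited table. Another H4 gene, Hist1h4b, lay at the opposite end with 0.40 (adjusted p = 0.361). The H4 class thus held both the highest and the lowest fold of the family, around a median of -0.02. Of the H3 genes, 9 of 10 were above 0 with a median of 0.16, led by Hist1h3c at 0.35 (adjusted p = 0.429), and Hist1h3f was the one below 0 at -0.13 (adjusted p = 0.986) by the authors' deposited table. For H2A genes the median was 0.10, 14 of 16 lying above 0, and Hist1h2af was highest at 0.22 (adjusted p = 0.911). The H2B genes had a median of 0.04, with Hist1h2bj at 0.28 (adjusted p = 0.717) and Hist1h2bp at -0.35 (adjusted p = 0.515) as extremes in the authors' deposited table. For H1 genes the median was 0.10, and the most abundant member of all, Hist1h1a, had a fold of 0.12 (adjusted p = 0.980).

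The testis-enriched members did not pass either. In the authors' deposited table Hist1h2ba (TH2B) had -0.29 on the log2 scale at P12 (adjusted p = 0.679), Hist1h2aa (TH2A) -0.09 (adjusted p = 0.994) and Hist1h1t (H1t) 0.14 (adjusted p = 0.983). Beside these, 4 of the 9 spermatocyte markers fell in the P12 knockout in the authors' deposited table: Sycp2 (-0.88), Prdm9 (-0.87), Spo11 (-0.85) and Dmc1 (-0.69), and the median of the 9 was -0.46 with all 9 below 0. Of the other lists, 1 of 6 germ cell markers fell (Sycp3, -0.66, adjusted p = 0.00407), 1 of 6 measured Leydig cell markers rose (Cyp17a1, 0.76, adjusted p = 0.000122), and none of 10 Sertoli cell markers passed, with 9 below 0 and a median of -0.10. Their part in the histone folds was not tested. The tables give no level per genotype, so the summed level of a marker list in each group is not given here.

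The folds at P12 were set beside each member's gain in share between the ages of the testis. The 12 members whose P12 share was more than 2 times their P8 share had a median fold of -0.07 in the authors' deposited table, with 9 of 12 below 0. The other 48 had a median of 0.08, with 8 below 0, and of the 22 members with a ratio below 1, 2 were below 0. Spearman's rho between ratio and fold was -0.43 across the 60 members and -0.03 across 15180 genes. Among all genes, the 453 with a ratio above 2 had a median fold of -0.04, with 254 below 0. The ratio and the fold share the P12 libraries, and genes are not independent replicates, so this is a description without a test.

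**Figure D3:**
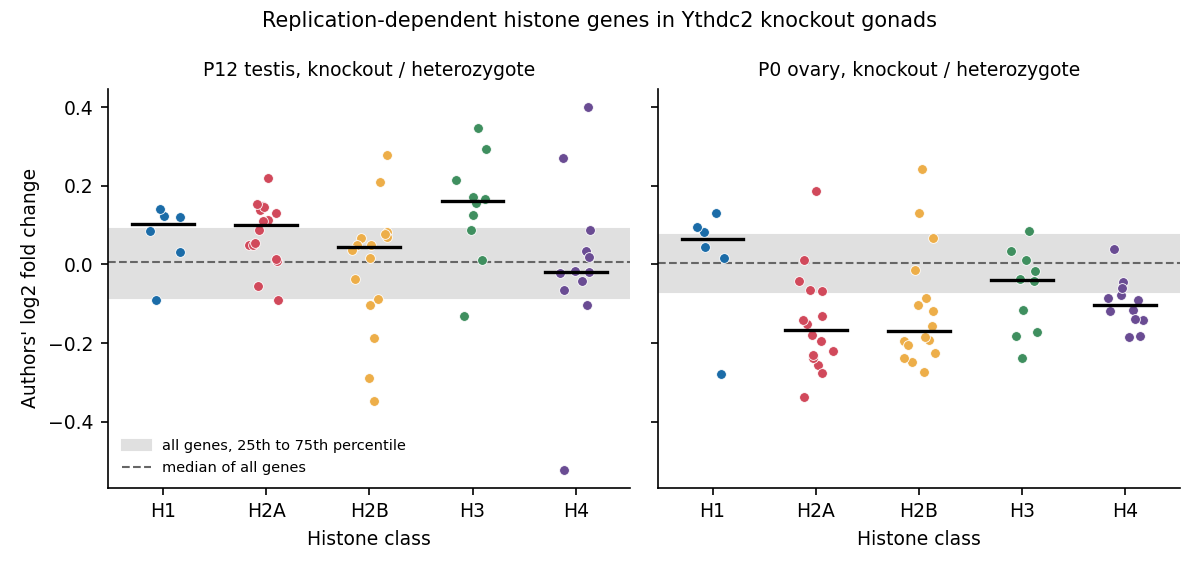
Authors' log2 fold changes, knockout over heterozygote (vertical axis), of the 60 histone members by class in P12 testis and P0 ovary. Each point is a gene, the short bars are class medians, the dashed line is the median of all genes and the grey band holds their middle, from percentile 25 to 75. No point passed an adjusted p of 0.05. The medians of all 60 were 0.06 in P12 testis and -0.12 in P0 ovary.

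Most of the machinery that serves these genes did not pass the test at P12, which was so for most genes, as 0.881% of 15558 passed. Of 23 measured genes for histone mRNA synthesis, processing and decay, 1 fell in the authors' deposited table: Zfp473, a zinc finger protein whose human counterpart works in histone pre-mRNA processing with the U7 snRNP, at -0.68 on the log2 scale (adjusted p = 0.00319). The median of the 23 was -0.03. Slbp, the stem-loop binding protein, had -0.03 and Npat, the coactivator of histone gene transcription, -0.14. Upf1, an RNA helicase in histone mRNA decay, had -0.34 and Eri1, an exonuclease of histone mRNA 3′ ends, 0.29 in the authors' deposited table, and none of these 4 passed. No gene of the S phase list passed (32 measured, median 0.00, 17 above 0), nor of the replacement histones (11 measured, median 0.09) or the histone chaperones (18 measured, median -0.05).

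In the P0 ovary no member passed the test and most folds were below 0. None of the 60 had an adjusted p below 0.05 in the authors' deposited table, against 0.548% of 14606 genes, 0.103% higher and 0.445% lower. The median log2 fold change was -0.12, with 46 of 60 below 0 and 14 above, whereas over all genes the median was 0.00, with 7047 below 0 and 7559 above. The lowest adjusted p among the members was 0.729, for the H2A gene Hist1h2ak at -0.34, which was also the lowest fold. For the other 59 the authors' deposited table gives an adjusted p of 1.00. With 2 libraries a group, folds of this size did not pass, and no spread between libraries can be set beside them.

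By class, 14 of 16 H2A genes (median -0.17), 13 of 16 H2B genes (median -0.17) and 11 of 12 H4 genes (median -0.10) were below 0 in the authors' deposited P0 ovary table. Of the H3 genes 7 of 10 were below 0 (median -0.04), with Hist1h3f at -0.24 and Hist1h3g at 0.09 as extremes. The H1 genes differed, with 5 of 6 above 0 and a median of 0.06. Among them Hist1h1e (H1.4) had 0.13 and Hist1h1t -0.28 in the authors' deposited table. The chromosome 11 pair was also above 0, with Hist3h2ba at 0.24 and Hist3h2a at 0.19, and so was Hist4h4 at 0.04. Within the chromosome 13 clusters, 18 of 19 measured genes of the block at 21715711 to 22043658 lay below 0 (median -0.18), as did 24 of 31 in the block at 23531044 to 23934913 (median -0.10), and on chromosome 3 it was 3 of 6.

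Oocyte and germ cell markers moved with genotype in the same ovaries. By the authors' deposited table, 6 of 8 oocyte markers fell, with a median of -1.39, Nlrp5 lowest at -2.51 (adjusted p = 2.21e-44), and 3 of 6 germ cell markers fell, with a median of -0.75. None of the 6 pregranulosa markers passed, and their median was 0.04. Whether these have a part in the histone folds was not tested. The S phase list (32 genes, median 0.01, 18 above 0), the histone mRNA list (23 genes, median 0.02), the replacement histones (13 genes, median 0.03) and the chaperones (17 genes, median -0.03) held no gene that passed. Over all genes, 0.548% of 14606 passed. H2afx, which encodes the H2A.X phosphorylated at DNA breaks, had -0.48 (adjusted p = 0.245) by the authors' deposited table.

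The P12 testis and P0 ovary comparisons share no library, so their signs can be set side by side. Of the 60 members, 34 (56.7%) were above 0 in P12 testis and below 0 in P0 ovary, against 25.1% of 14187 genes. Each tissue alone leaned that way, with 43 of 60 above 0 in P12 testis and 46 of 60 below 0 in P0 ovary. The joint count therefore does not by itself link the tissues. Both folds were below 0 for 12 members, both above for 9, and 5 were below in P12 testis and above in P0 ovary. None of these folds passed its test in the authors' deposited tables, and the difference between the tissues itself could not be tested without values per library. In 6 of the 8 head-to-head H2A and H2B pairs both partners had the same sign in P12 testis, and in 7 of 8 in P0 ovary. The partners Hist1h2an and Hist1h2bp had 0.11 and -0.35 in P12 testis by the authors' deposited table, opposite signs. Hist1h2ba and Hist1h2aa had -0.29 and -0.09 in P12 testis, and 0.07 and -0.04 in P0 ovary in the authors' deposited tables.

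At P8 the histone genes also stayed short of the test in all 3 comparisons, each with adjusted p of 1 for every member. The knockout against the wild type called none of 60 in the authors' deposited table (0.0449% of 15592 genes were called, 0.0385% higher and 0.00641% lower), with a median log2 fold change of 0.05 and 40 above 0. The knockout against the heterozygote called none (0.0577% of all genes, 0.00641% higher and 0.0513% lower), with a median of -0.01 and 24 above 0. The heterozygote against the wild type, 1 library each and so without any replicate, called none (0.0128% of all genes), with a median of 0.07 and 52 above 0. These comparisons share their 4 libraries, and each control is 1 library.

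Single members at P8 had small folds. Against the wild type, the knockout had 0.25 for Hist1h2ak, 0.19 for Hist4h4, 0.18 for Hist1h1c, -0.16 for Hist2h2bb and -0.15 for Hist1h2ba in the authors' deposited table. Against the heterozygote, the knockout had 0.20 for Hist1h2ak, -0.24 for Hist2h2bb and -0.23 for Hist1h3g in the same deposited table. The heterozygote against the wild type had 0.23 for Hist4h4, 0.19 for Hist1h1b, -0.14 for Hist3h2a and -0.12 for Hist1h2ba. In that last comparison all 10 H3 and all 12 H4 genes were above 0, so the 1 heterozygous and the 1 wild-type library differed in one direction for these classes. On the S phase list, 26 of 32 replication genes were above 0 in the heterozygote against the wild type (median 0.05), 28 of 32 were below 0 in the knockout against the heterozygote (median -0.09), and 24 of 32 were below 0 in the knockout against the wild type (median -0.06). Spermatid transcripts, which a P8 testis should lack, but of which 5 of 7 markers reached the floor in the ovary too, also separated the heterozygous library: in the authors' deposited table Prm1 and Prm2 were higher in the heterozygote than in the wild type (0.51 and 0.74), and 5 of 6 measured spermatid markers fell in the knockout against the heterozygote (median -0.68). The part of these transcripts in the histone folds was not tested.

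**Figure D4:**
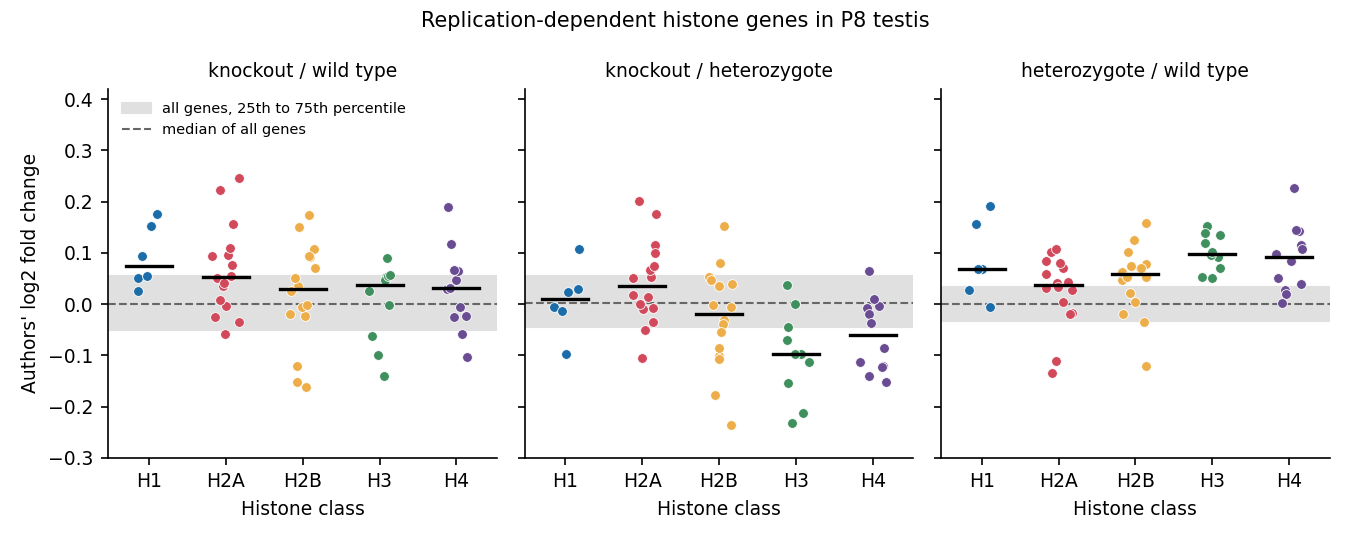
Authors' log2 fold changes of the 60 histone members in the 3 comparisons at P8 (vertical axis), by class, with each point a gene, bars at class medians, and the median (dashed) and the percentiles 25 to 75 (grey band) of all genes. The medians of all members were 0.05 for knockout over wild type, -0.01 for knockout over heterozygote and 0.07 for heterozygote over wild type, and none passed the test.

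The m6A precipitation at P8 separated a few of the histone genes counted after poly(A) selection. This comparison sets 1 immunoprecipitate against 1 input of wild-type testis, so it has no replicate. How the spread behind its adjusted p was estimated is not given in the sources used. Of the 37 members at the count floor, 29 were tested in the authors' deposited table and 4 of these passed (13.8%), whereas 53.2% of 15807 genes passed, 26.9% higher and 26.3% lower. Among the 6548 genes within the members' range of mean counts (17.0 to 410), 33.7% passed, 18.8% higher and 14.9% lower. The share of members called was below both. That range is set by the members' extremes, and the counts within it were not matched. The part of count level in this difference was not tested.

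Higher in the immunoprecipitate than in the input were Hist3h2a, at a log2 fold change of 1.09 (adjusted p = 0.00429, mean normalized count 343), and Hist2h2be, at 0.69 (adjusted p = 0.0464, mean normalized count 410), by the authors' deposited table. They were also the 2 members with the highest mean counts in that table. Lower in the immunoprecipitate than in the input were Hist1h4c, at -1.81 (adjusted p = 0.0294, mean normalized count 43.4), and Hist1h2aa, at -1.73 (adjusted p = 0.0349, mean normalized count 52.2). Hist1h2aa thus differed in sign from Hist3h2a, although both encode H2A-type histones. Hist1h4m, an H4 gene, had -1.63 (adjusted p = 0.0554) by the authors' deposited table, just short of the threshold.

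The other members mostly lay below 0. Over the 37, the median log2 fold change was -0.44 with 26 below 0 in the authors' deposited table, against -0.01 over all genes, and over the 29 tested members 20 were below 0, against 49.0% of the 6548 genes in their range of counts. The 7 H4 genes had a median of -1.04 with 6 below 0, and Hist1h4j at 0.88 (adjusted p = 0.439) was the exception. Medians were -0.13 for the 6 H1 genes, -0.30 for the 13 H2A genes and -0.37 for the 9 H2B genes, and the 2 measured H3 genes, Hist1h3h (-1.40) and Hist1h3i (-1.12), had no adjusted p. Hist1h1a had -0.90 (adjusted p = 0.110), Hist1h1t 0.27 (adjusted p = 0.769) and Hist1h2ba -0.23 (adjusted p = 0.786) by the authors' deposited table. For comparison, the S phase list held 4 genes that were higher and 18 that were lower of 32, and the replacement histones 3 higher, among them H2afx at 2.56 (adjusted p = 1.48e-40), and 6 lower of 12, among them H3f3b at -2.02 (adjusted p = 2.47e-22), as the authors' deposited table gives them. The precipitation was made on polyadenylated RNA, in which the family took 0.0124% of sense exon counts.

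**Figure D5:**
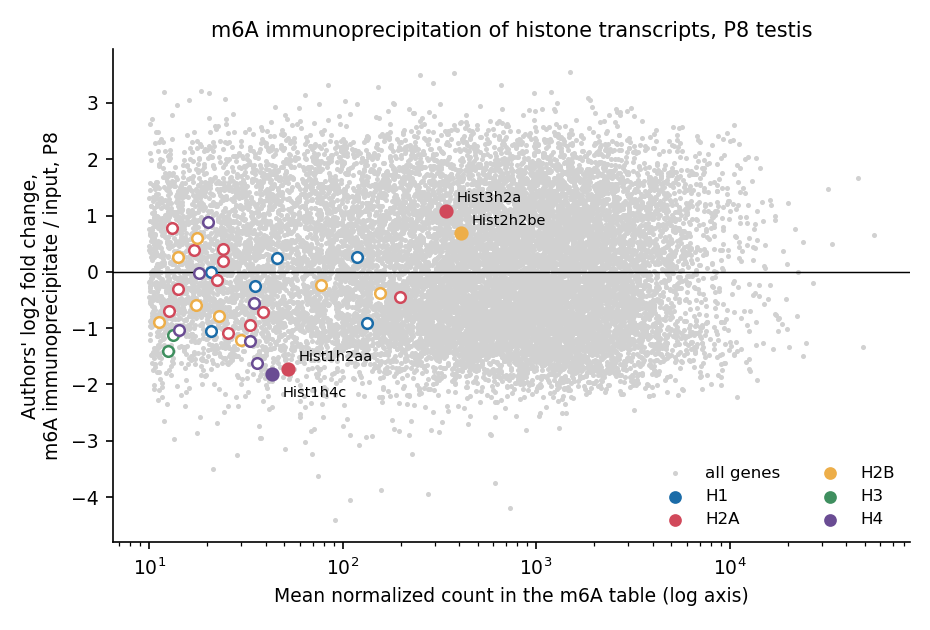
Authors' log2 fold change of immunoprecipitate over input in P8 testis (vertical axis) against the mean normalized count in the m6A table (horizontal axis, logarithmic), with histone members coloured by class over all genes in grey. Filled points passed an adjusted p of 0.05: Hist3h2a (1.09) and Hist2h2be (0.69) above 0, Hist1h4c (-1.81) and Hist1h2aa (-1.73) below.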

How the data were processed

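The files used were 4 tables of the authors' own comparisons. Per the file headers, each deposited table gives a mean normalized count per feature (a signal averaged over all its libraries), log2 fold changes and adjusted p-values. The submitters' processing notes name mm10 and DESeq2 for the authors' mouse tables, and cutadapt for some of the libraries. Versions, aligner, strand setting and the handling of reads shared by near-identical histone copies are not given in the sources used, so values of single copies are uncertain. Depth per library is unknown. Count models per library had been planned. The tables hold no such counts, so the authors' adjusted p below 0.05 with a mean count of at least 10 was used. In 2 of the total RNA tables (P8, P12) headers say IP and input where the labels give total RNA only; these columns were read as knockout over control. The m6A columns of each age, P8 included, were sorted by adjusted p in 8 of 8 feature types, so the ages cannot all match the gene names. Of features with a mean count above 0, 2911 had no fold at P12 and 2823 at P20, against 0 at P8. Only P8 was used, and its match to the names rests on this. The Bind-N-Seq table holds no genes and was not used.

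Shares, ratios, medians and counts were computed with Python 3.11.15, pandas 2.3.3 and NumPy 2.4.6, and drawn with Matplotlib 3.10.9. Only the counting of called genes and the median of folds were tested on simulated data. Members matched RefSeq (GRCm38.p6) by symbol or synonym, 63 of 63, for location, span and promoter. The members, lists and rules were chosen with earlier results of these data known. Named members were those called, the 3 with the highest mean count and the highest and lowest fold of each class, the testis-enriched genes, and the 5 highest and 5 lowest polyadenylated over total shares. Others were named for their values. The alternatives were no count floor, a floor of 50, an adjusted p below 0.1, folds relative to the median of all genes, leaving out the testis-enriched members, and other denominators of the shares.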

Additional observations from a re-analysis of the deposited data

How the results depend on the processing

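All 50 alternatives moved a count of members called by at most 1 or a median by less than the SD across members. That SD was used since no spread between libraries is given. In the m6A comparison the count was 3 at a floor of 50 and 5 at an adjusted p below 0.1, against 4. Set apart from the other 49 was the P12 testis count, since it left 0. It was 1 (Hist1h4i, adjusted p = 0.0643 in the authors' deposited table) at an adjusted p below 0.1, against 0 below 0.05. Median folds in total RNA moved by at most 0.00816 and in the m6A comparison by at most 0.141 on the log2 scale. The SD across members is a loose limit. In P12 testis it was 0.156, larger than the median fold of 0.06, so a change of sign could stay within it. A floor of 50 left the median folds in total RNA unchanged. The median log2 ratio of polyadenylated over total share (-7.51 against P12) was -6.96 against P8 testis, -7.75 against P0 ovary, -6.98 with all feature types in the denominator, -6.80 over the 37 members with a mean count of at least 10 in both tables, and -7.78 over members with a span under 1000 bases, an alternative chosen after seeing the data. The members' median share ratio of P12 testis to P0 ovary crossed 1 with all feature types in the denominator (1.04, against 0.683 with sense exons), and that of P12 to P8 testis was 1.34 (against 1.17), both chosen after seeing the data. Leaving out 1 library at a time was not run, because the tables hold no values per library. No paired analysis was possible because the tables hold no values per library. The authors' folds of low genes lie close to 0 (SD across genes at P12 of 0.0418 below a mean count of 10, against 0.139 above 1000), which limits what low members show.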

Other observations

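Antisense reads over the histone genes were few. Among members with an antisense entry, the median antisense mean count in the authors' deposited tables was 0.168% of the sense one in P12 testis, 0.186% in P8 testis and 0.226% in P0 ovary, and 1.36% in the m6A table. An antisense mean count of at least 10 was reached by 12 members in P12 testis, 9 in P8 testis, 5 in P0 ovary and 2 in the m6A table, and none was called in any comparison. Intron counts were listed for Hist1h2bc, Hist1h2be and Hist1h2bp only. In P12 testis the intron of Hist1h2bc had a log2 fold change of 0.28 (adjusted p = 0.859) and that of Hist1h2be 0.18 (adjusted p = 0.994) by the authors' deposited table.

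The tables also list further copies of histone genes under names with a prefix, which the naming rule left out. There were 5 in each total RNA table, with a summed mean normalized count of 4021 in P12 testis, 2954 in P8 testis and 2824 in P0 ovary in the authors' deposited tables, and none was called. The m6A table held 7, and 1 was called: a second entry of Hist1h2ao was lower in the immunoprecipitate than in the input (log2 fold change -1.11, adjusted p = 0.0134, mean normalized count 202) by the authors' deposited table.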
